A study of Mus musculus with 10 samples.

Results

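Transcripts of 9 genes used to recognise fibroblasts (Vim, Nes, Thy1, Cd44, Pdgfra, Pdgfrb, Prrx1, Twist1 and S100a4) were followed in mouse embryonic fibroblasts kept at 2% CO2 or at 10% CO2 for 24 h. The 9 were taken by gene name from a table of 78317 genes, where each name stood for 1 identifier. The cells were a wildtype line immortalized with T antigen, a viral protein that binds and blocks the tumour suppressors p53 and Rb, and all libraries share that background. Stocks were kept in complete medium under 10% CO2, so 2% CO2 (hypocapnia) was the changed condition. There were 5 libraries at 2% CO2 and 5 at 10% CO2, with replicates 1 to 3 of each level in batch 1 and replicates 4 and 5 in batch 2. The labels do not say what a batch was, whether the line is 1 clone or whether replicates came from separate cultures. The p-values therefore speak only to the spread among these libraries, and that spread may be technical.

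Fibroblasts are mesenchymal cells without one exclusive marker, and they are recognised by a set of genes acting in different compartments. Vimentin and nestin build intermediate filaments, Thy-1 and CD44 sit on the cell surface, and the PDGF receptors pass on a growth signal for mesenchymal cells. Prrx1 and Twist1 are transcription factors of the embryonic mesenchyme, and S100A4, once named fibroblast-specific protein, is a small calcium-binding protein that acts on non-muscle myosin. Several of these genes are also active in pericytes, neural progenitors or leukocytes, so none of them alone names a cell type.

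Depth was uneven, from 178676 estimated counts in 2% CO2 replicate 2 to 12354538 in 2% CO2 replicate 4. The shallow libraries were 2% CO2 replicates 2 and 3 (178676 and 506405) and 10% CO2 replicate 5 (892318). Levels are given as CPM, counts scaled to a common library total after TMM normalization, and counting intervals and floors cover counting error only. The label of the cells was checked against 28 fibroblast markers, of which 24 were abundant enough to test, the 9 genes among them where they passed the filter. Col1a1 averaged 2006 CPM at 2% CO2 and 4289 CPM at 10% CO2. The summed fibroblast markers were lower at 2% CO2 in every library (10499 to 15232 CPM, against 16327 to 22145 CPM at 10% CO2). Abundant matrix genes weigh heavily in that sum, such as Col1a1, Col1a2 (1374 and 2605 CPM) and Sparc (1861 and 2872 CPM). Over all 13198 tested genes 6.73% were called lower and 5.3% higher. The fibroblast list was not counted under other settings. Of its 24 tested genes, 12 were called lower, Vim, Nes and Thy1 among them, none higher, and 12 did not pass. S100a4, Pdpn, Cd44 and Fbln2 had positive log2 differences (0.82, 0.53, 0.26 and 0.12) among those that did not pass. Pdgfra, Dcn, Lum and Fap of the same list were nearly absent (72, 34, 3 and 25 counts over all libraries). Some genes that define other cell types were at or near 0: Epcam had 24 counts in all, Cdh1 13, Pecam1 6.5, Ptprc 20 and Myod1 11, and Sox10 had none. Other genes of the same lists were present. Cd14 and Cd68 of the haematopoietic list had 215 and 144.5 counts in all, and Acta1 of the skeletal muscle list 566. Fabp4, an adipocyte marker, had 467 counts, and none of these genes was called. Of the cartilage and bone markers, 4 of 11 could be tested: Sox9 (744 counts), Runx2 (3338) and Col2a1 (568) did not pass. Acan, with 132 counts, was called lower (log2 difference -1.36, edgeR adjusted p = 0.0254), a call not examined under other settings. Of the epithelial markers 3 of 14 could be tested, led by the keratin gene Krt19 (65.8 CPM at 2% CO2 and 54.0 CPM at 10% CO2), and none was called. Of the endothelial markers 3 of 12 could be tested: Kdr, a VEGF receptor gene, was called higher (9.21 CPM at 2% CO2 and 5.38 CPM at 10% CO2, log2 difference 0.98, edgeR adjusted p = 0.0134), and Flt1 and Egfl7 did not pass. Kdr had 505 counts in all, its CO2 groups overlapped, and its call was not examined under other settings. Both its means lie below the 15.7 CPM that 3 counts equal in 2% CO2 replicate 2. Summed, the endothelial list gave 45.7 to 58.4 CPM at 2% CO2 and 39.4 to 62.8 CPM at 10% CO2, with Tie1, Sox17 and Vwf at 0, and the epithelial list 65.7 to 108 CPM at 2% CO2 and 48.7 to 88.3 CPM at 10% CO2. The part of these genes in the marker differences was not tested. In bulk RNA, fewer cells of a type and less RNA per cell cannot be told apart.

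Of the 9 markers, 8 were abundant enough to test. Vim, Nes and Thy1 fell at 2% CO2, none rose (1 at an unadjusted p under 0.05, and 1 with DESeq2 and with limma-voom, in each case S100a4), and 5 did not pass an adjusted p of 0.05 by the edgeR quasi-likelihood test over all genes. Over all 13198 genes tested, 12% were called, 6.73% lower and 5.3% higher at 2% CO2. Among the 7002 genes of at least 20 CPM, a level that all 8 reached, 8.77% were called lower and 6.76% higher. The median log2 fold change (2% minus 10% CO2) of the 8 tested markers was -0.38, against 0.0027 over all tested genes. The 8 did not move as one group: 6 had negative and 2 had positive fold changes, and the largest in size in each direction were those of Thy1 and S100a4. Blocking on the replicate number in place of the batch called 5 markers lower (Vim, Nes, Thy1, Prrx1 and Twist1) and 1 higher (S100a4). Same-numbered libraries correlated only weakly once the means of CO2 level and batch were removed (Pearson r of 0.027 to 0.24). Pairs of different numbers were not compared. Within a CO2 level the coefficient of variation over the 5 libraries ran from 7.80% (Twist1 at 10% CO2) to 31.6% (Pdgfrb at 2% CO2) for the tested markers.

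**Figure D1:**
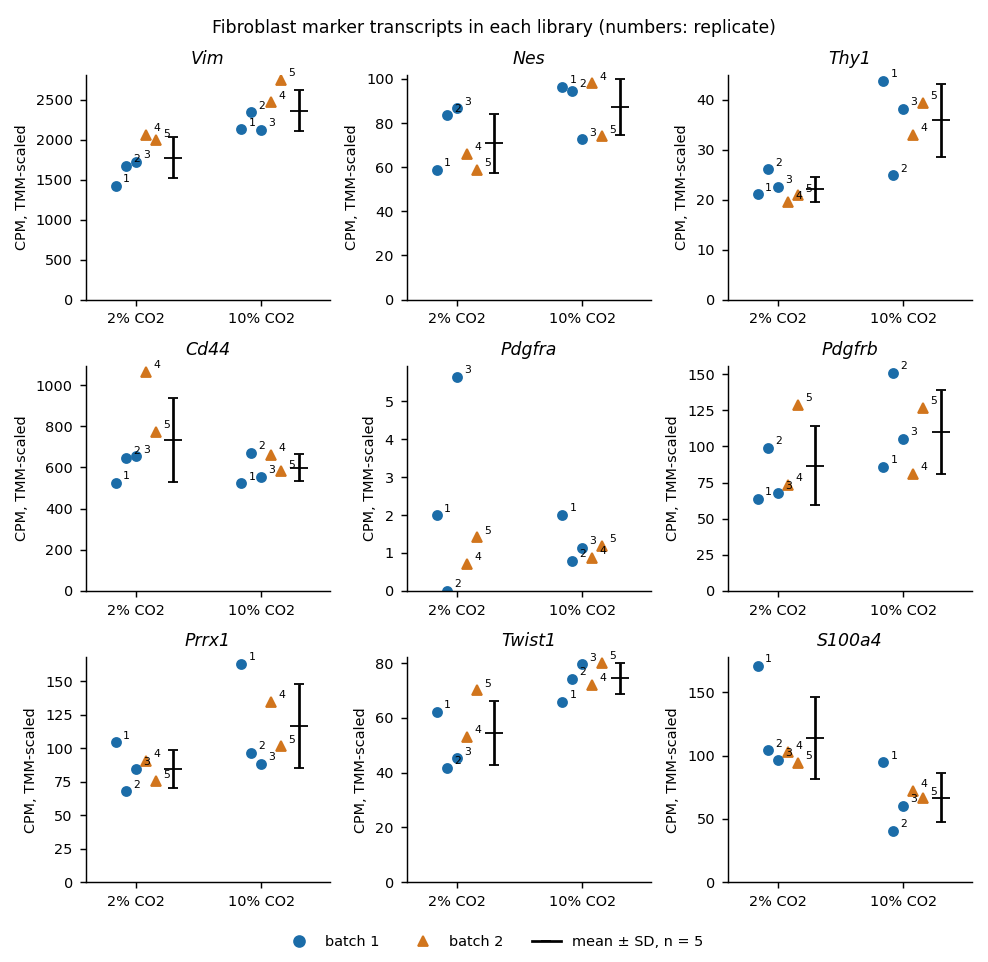
Level of each marker (y axis, TMM-scaled CPM) in the 5 libraries at 2% CO2 and the 5 at 10% CO2, with the replicate number beside each point, batch by symbol, and the mean ± SD as bars (left out for Pdgfra, which had 72 counts in all). Vim separates the CO2 levels completely, and S100a4 (higher at 2% CO2), Thy1 and Twist1 (both lower) nearly so.

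The fold changes below are log2 differences, 2% minus 10% CO2, fitted with edgeR. Vim encodes vimentin, the main intermediate filament protein of mesenchymal cells. Its level was 1423, 1675, 1723, 2063 and 1991 CPM in replicates 1 to 5 at 2% CO2. At 10% CO2 it was 2130, 2341, 2126, 2465 and 2748 CPM in replicates 1 to 5. Every 2% CO2 library lay below every 10% CO2 library, the only one of the 8 markers of which this was true, where 5.54% of all tested genes showed no overlap in either direction. It had 1775 ± 258 CPM on average under 2% CO2, against 2362 ± 259 CPM under 10% CO2 (SD over 5 libraries each). The fitted log2 difference was -0.42 ± 0.10 (SE, edgeR adjusted p = 0.00958), and without the batch term it did not pass (adjusted p = 0.145). It was -0.45 in batch 1 alone (adjusted p = 0.0476), where 6.22% of the genes tested were called, and -0.34 in batch 2 alone (adjusted p = 0.217), where 1.83% were. The call held whichever of the 10 libraries was removed, with adjusted p of up to 0.0257. Vim was also higher in batch 2 than in batch 1, by 0.29 on the log2 scale (edgeR adjusted p = 0.0283). That batch call did not hold when 10% CO2 replicate 1 or 3, 2% CO2 replicate 4 or 5, or the 3 shallow libraries were removed.

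Nes encodes nestin, a large intermediate filament protein that copolymerises with vimentin and is best known from neural progenitors. It was at 58.9, 83.5, 86.6, 66.2 and 58.8 CPM in replicates 1 to 5 at 2% CO2, against 96.6, 94.6, 72.6, 98.0 and 74.1 CPM at 10% CO2. The groups overlapped, since 2% CO2 replicates 2 and 3, the shallow ones, lay above 10% CO2 replicates 3 and 5. The log2 fold change was -0.43 ± 0.13 (SE, edgeR adjusted p = 0.0404). This no longer passed once 10% CO2 replicate 1 or 4, or 2% CO2 replicate 1, 4 or 5, was removed, with adjusted p between 0.0846 and 0.281. Nor did it pass with library totals in place of TMM (0.106), with DESeq2 (0.0524) or without the batch term (0.242), all as adjusted p. With the 3 shallow libraries left out together, the log2 fold change was -0.62 (adjusted p = 0.0181). The other neural and glial markers stayed low in both groups, with a summed level of 33.9 to 73.1 CPM at 2% CO2 and 44.5 to 71.4 CPM at 10% CO2, most of it from Tubb3, and with Sox1, Dcx, Olig2 and Sox10 at 0. The part of that in the Nes difference was not tested.

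The RefSeq promoter windows of both filament genes (250 bases before to 50 after a start site, build GRCm38.p6) are shown because these genes fell together. The files use build GRCm39, and no coordinates were carried between the builds. Capitals mark TATAAA and CCAAT on either strand.
Vim (chr2:13574061-13574360, plus strand): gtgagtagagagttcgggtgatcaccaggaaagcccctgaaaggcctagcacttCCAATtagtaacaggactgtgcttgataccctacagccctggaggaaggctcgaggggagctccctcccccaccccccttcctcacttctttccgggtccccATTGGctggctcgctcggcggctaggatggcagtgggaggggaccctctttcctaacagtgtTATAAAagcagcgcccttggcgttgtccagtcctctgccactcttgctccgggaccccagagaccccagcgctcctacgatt
Nes (chr3:87970843-87971142, plus strand): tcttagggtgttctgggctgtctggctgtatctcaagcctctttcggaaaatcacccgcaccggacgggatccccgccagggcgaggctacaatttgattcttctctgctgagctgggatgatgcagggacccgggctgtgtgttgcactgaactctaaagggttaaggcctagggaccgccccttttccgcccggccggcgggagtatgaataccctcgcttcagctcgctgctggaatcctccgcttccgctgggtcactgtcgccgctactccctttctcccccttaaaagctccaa
The Vim window holds TATAAA 32 bases before the start and CCAAT on either strand 196 and 94 bases before it. The Nes window holds neither, and has the GC box GGGCGG, on either strand, 73 and 62 bases before the start. On either strand, TATAAA occurs in 13.6% of all 32851 windows of this length, CCAAT in 37.4% and GGGCGG in 35.7%. The E box CANNTG, the motif of Twist1 and related factors, is in 72.3% of windows and in neither of these, and the AP-1 letters TGANTCA are in 7.81% and in neither. These letters are a description of the windows and mark no binding.

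Thy1 encodes Thy-1 (CD90), a lipid-anchored surface glycoprotein that binds integrins. At 2% CO2 it was at 21.1, 26.1, 22.6, 19.5 and 20.9 CPM in replicates 1 to 5. At 10% CO2 it was at 43.9, 24.9, 38.2, 33.0 and 39.4 CPM. The groups overlapped at 1 pair of libraries, both numbered 2: 2% CO2 replicate 2 held only 5 Thy1 counts (95% Poisson interval 8.47 to 60.9 CPM), and 10% CO2 replicate 2 was the lowest of its group. It had 22.0 ± 2.52 CPM on average under 2% CO2, against 35.9 ± 7.26 CPM under 10% CO2 (SD over 5 libraries each). That is a log2 difference of -0.74 ± 0.16 (SE, edgeR adjusted p = 0.00611). It was -0.68 in batch 1 alone (adjusted p = 0.132) and -0.77 in batch 2 alone (adjusted p = 0.0488). The call held whichever of the 10 libraries was removed, with log2 fold changes between -0.83 and -0.68.

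Cd44 encodes the hyaluronan receptor CD44, a marker shared by fibroblasts, stem cells and leukocytes. Its level was 525, 647, 654, 1066 and 773 CPM in replicates 1 to 5 at 2% CO2, against 522, 672, 554, 661 and 582 CPM at 10% CO2. In batch 1 the groups overlapped, while in batch 2 both 2% CO2 libraries lay above both 10% CO2 libraries. The log2 fold change was 0.26 ± 0.13 (SE, edgeR adjusted p = 0.217), with 0.06 in batch 1 and 0.58 in batch 2, and it did not pass. The difference of 0.51 between the batches (log2) did not pass either (edgeR interaction, adjusted p = 0.558, unadjusted p = 0.0399), and 0% of all tested genes passed that interaction with edgeR. At an unadjusted p under 0.05 there were 1154 such genes, and DESeq2 called 57 and limma-voom 0 after adjustment, with no marker among them. Without 2% CO2 replicate 4, the highest library, the log2 fold change was 0.14. Cd44 was higher in batch 2 than in batch 1 by 0.35 (log2, edgeR adjusted p = 0.0464), where 36% of all genes differed between the batches. That call was lost with 4 of the other settings and on removal of any 1 of 7 of the 10 libraries.

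Pdgfrb and Pdgfra encode the receptor tyrosine kinases for platelet-derived growth factors. Pdgfrb was at 63.7, 99.2, 67.8, 73.5 and 129 CPM in replicates 1 to 5 at 2% CO2, against 85.9, 151, 105, 81.0 and 127 CPM at 10% CO2. The groups overlapped widely, and replicate 2 in batch 1 and replicate 5 in batch 2 were the highest of their batch at both levels. The log2 fold change was -0.34 ± 0.26 (SE, edgeR adjusted p = 0.472), with -0.71 in batch 1 (adjusted p = 0.0741) and 0.09 in batch 2 (adjusted p = 0.933). The approximate 95% interval of the log2 difference ran from -0.86 to 0.18, so it includes both a fall as large as that of Thy1 and a small rise. Single libraries moved the value: it was -0.15 without 2% CO2 replicate 1 and -0.19 without 10% CO2 replicate 2, but -0.59 without 2% CO2 replicate 5 and -0.58 without 10% CO2 replicate 4, with adjusted p between 0.0662 and 0.875. Pdgfra was too low to test. It had 5, 0, 3, 9 and 18 counts in replicates 1 to 5 at 2% CO2 and 11, 7, 9, 9 and 1 counts at 10% CO2. In the deepest library its 9 counts equal 0.708 CPM (95% Poisson interval 0.324 to 1.34 CPM), and the 0 in 2% CO2 replicate 2 allows up to 15.7 CPM by a limit of 3 counts (19.3 CPM by the upper end of that Poisson interval). Set within each library, Pdgfra gave 0 to 8.33 counts per 100 Pdgfrb counts at 2% CO2 and 0.522 to 2.34 at 10% CO2. These ratios are not corrected for transcript length, and most rest on under 12 Pdgfra counts.

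Prrx1 encodes a homeodomain factor of limb and craniofacial mesenchyme. It was at 104, 67.9, 84.8, 90.9 and 75.4 CPM in replicates 1 to 5 at 2% CO2, against 163, 96.6, 88.5, 134 and 102 CPM at 10% CO2. Only 2% CO2 replicates 1 and 4 reached above the lowest 10% CO2 library. The log2 fold change was -0.43 ± 0.18 (SE, edgeR adjusted p = 0.137), and it did not pass. With the same model and no filter on low counts it passed (-0.42, adjusted p = 0.0171). Within same-numbered libraries Prrx1 was lower at 2% CO2 in 5 of 5 pairs, and with the replicate block the log2 fold change was -0.48 (adjusted p = 0.00353). Replicates 1 and 4 were the highest of their batch at both CO2 levels. In the RefSeq annotation of GRCm38.p6, Prrx1 overlaps the gene models Gm20471 and LOC108167740, and the labels state no strand, so reads of overlapping genes cannot be told apart.

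Twist1 encodes a basic helix-loop-helix factor of mesoderm and neural crest that works as a dimer with E proteins. Its level was 62.1, 41.8, 45.2, 53.2 and 70.1 CPM in replicates 1 to 5 at 2% CO2, against 66.0, 74.2, 79.6, 72.2 and 80.0 CPM at 10% CO2. Of the 2% CO2 libraries only replicate 5 exceeded the lowest 10% CO2 library. In 2% CO2 replicate 2 the level rests on 8 counts. The log2 fold change was -0.34 ± 0.12 (SE, edgeR adjusted p = 0.0747), with -0.40 in batch 1 and -0.26 in batch 2, and it did not pass. It passed without 2% CO2 replicate 5 (-0.44, adjusted p = 0.0326) and with the replicate block (-0.36, adjusted p = 0.0381), and was lower in 5 of 5 pairs. Without the 3 shallow libraries it was -0.23 (adjusted p = 0.309).

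S100a4 had the largest fold change of the tested markers, toward higher levels at 2% CO2. It was at 171, 104, 97.0, 103 and 94.5 CPM in replicates 1 to 5 at 2% CO2, against 94.8, 40.7, 60.6, 72.0 and 66.3 CPM at 10% CO2. The lowest 2% CO2 library (94.5 CPM) lay just under the highest 10% CO2 library (94.8 CPM), and within each batch the groups did not overlap. It had 114 ± 32.3 CPM on average under 2% CO2, against 66.9 ± 19.6 CPM under 10% CO2 (SD over 5 libraries each). The log2 difference came to 0.82 ± 0.24 (SE) and did not pass with batch in the model (edgeR adjusted p = 0.0542). With the replicate block it passed, at 0.70 (adjusted p = 7.84e-05), and S100a4 was higher at 2% CO2 in 5 of 5 pairs. It also passed with DESeq2 (adjusted p = 0.0119), limma-voom (0.0445), library totals (0.0209), either other filter (2.23e-08 and 0.0407) and without 10% CO2 replicates 1 or 2 (0.0198 and 0.0211). Without 2% CO2 replicate 1, the highest library, it was 0.54 (adjusted p = 0.258). In 4 libraries its deposited counts held a fraction, whose origin the labels do not state. The same was so in 5 libraries for Nes, in 4 for Cd44, and in 1 each for Vim, Pdgfrb, Prrx1 and Twist1.

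The RefSeq promoter window of S100a4 (GRCm38.p6) is shown as that of the marker with the largest fold change, which was positive and did not pass with batch in the model. TATAAA is in capitals.
S100a4 (chr3:90603520-90603819, plus strand): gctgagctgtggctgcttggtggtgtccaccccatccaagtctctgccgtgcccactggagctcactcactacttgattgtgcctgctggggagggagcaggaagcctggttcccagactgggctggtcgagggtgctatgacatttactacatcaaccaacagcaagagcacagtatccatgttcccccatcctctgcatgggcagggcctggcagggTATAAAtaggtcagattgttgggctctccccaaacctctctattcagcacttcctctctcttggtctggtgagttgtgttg
TATAAA lies 31 bases before the start, close to its place in the Vim window, and neither CCAAT nor the GC box, the E box or the AP-1 letters occur on either strand. TATAAA is also in the Twist1 window, 126 bases before the start. The part of these letters in the fold changes was not tested.

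**Figure D2:**
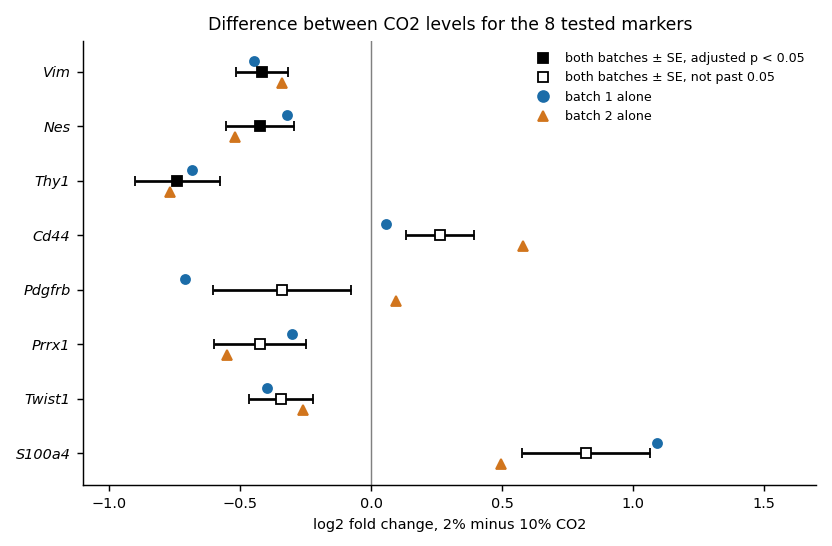
Log2 fold change (x axis, 2% minus 10% CO2) of the 8 tested markers, with squares for both batches (bars are the SE, filled where the adjusted p was under 0.05), circles for batch 1 alone and triangles for batch 2 alone. Both batches lie on the same side of 0 for all but Pdgfrb, and the batch 1 values run from -0.71 for Pdgfrb to 1.09 for S100a4.

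**Figure D3:**
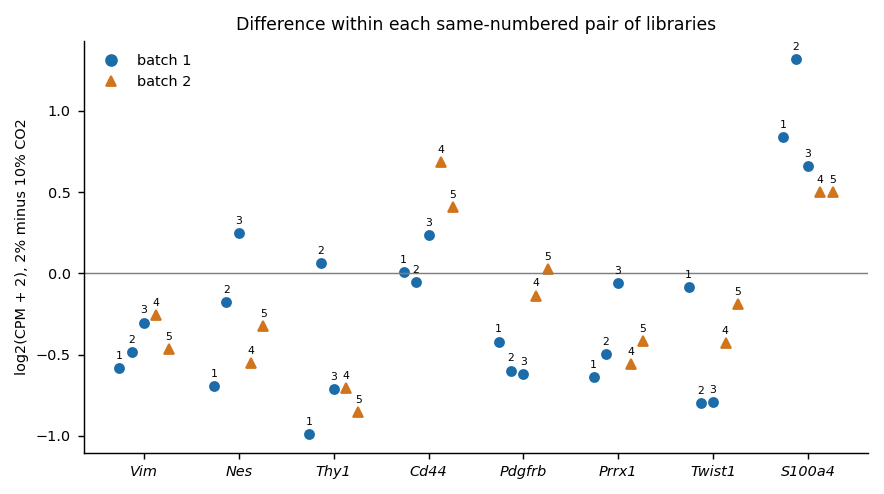
Difference in log2(CPM + 2) between 2% and 10% CO2 (y axis) within each same-numbered pair of libraries, 5 pairs for each of the 8 tested markers, with batch by symbol and the replicate number above each point. All 5 pairs lie below 0 for Vim, Prrx1 and Twist1 and above 0 for S100a4, and 4 of 5 lie on one side for the other 4 markers.

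Pair by pair, Vim, Prrx1 and Twist1 were lower at 2% CO2 in 5 of 5 pairs, Nes, Thy1 and Pdgfrb in 4 of 5, and S100a4 was higher in 5 of 5 and Cd44 in 4 of 5. For Cd44, pairs 1 to 5 gave 0.0084, -0.054, 0.24, 0.69 and 0.41 in log2(CPM + 2), so pair 1 was near 0. The pair that broke the order was number 3 for Nes, number 2 for Thy1, number 5 for Pdgfrb and number 2 for Cd44. For Nes, Thy1 and Cd44 that pair holds one of the shallow 2% CO2 libraries, and for Pdgfrb it holds the shallow 10% CO2 replicate 5. Across the 10 libraries with batch means removed, Vim and Thy1 had a Pearson r of 0.74, Vim and Nes one of 0.67, and Vim and S100a4 one of -0.89. These points share libraries and depth and carry the CO2 difference itself, so they describe the set and test nothing.

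Count ratios within a library do not depend on the scaling between libraries. For every 100 Vim counts, S100a4 had 12.0, 6.23, 5.63, 4.98 and 4.75 counts in replicates 1 to 5 at 2% CO2, against 4.45, 1.74, 2.85, 2.92 and 2.41 at 10% CO2. For every 100 Thy1 counts, S100a4 had 811, 400, 429, 526 and 452 counts at 2% CO2, against 216, 164, 159, 218 and 168 at 10% CO2. For every 100 Vim counts, Cd44 had 36.9, 38.6, 37.9, 51.6 and 38.8 counts at 2% CO2, against 24.5, 28.7, 26.1, 26.8 and 21.2 at 10% CO2. None of these 3 ratios overlapped between the CO2 levels. Nes did not part from Vim in the same way, with 2.95 to 5.03 counts per 100 Vim counts at 2% CO2 and 2.7 to 4.53 at 10% CO2. Prrx1 and Twist1 overlapped as well, with 108 to 188 Prrx1 counts per 100 Twist1 counts at 2% CO2 and 111 to 247 at 10% CO2. The ratios were chosen after the levels were seen and have no test, and a ratio does not say which of its 2 genes moved.

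**Figure D4:**
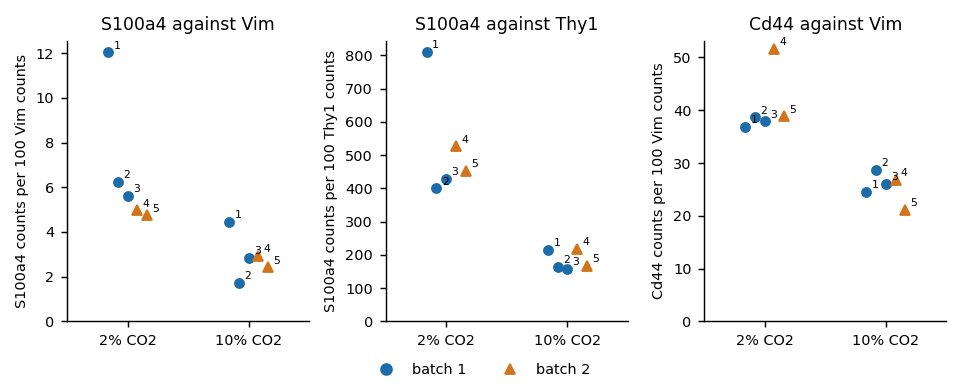
Counts of S100a4 per 100 Vim counts, of S100a4 per 100 Thy1 counts and of Cd44 per 100 Vim counts (y axes) in each library at 2% and at 10% CO2, with batch by symbol and the replicate number beside each point. In each panel every 2% CO2 library lies above every 10% CO2 library, by the widest margin in 2% CO2 replicate 1 for S100a4.

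Related genes were read from 7 lists around the markers, beside the 6.73% of all tested genes that fell and the 5.3% that rose. Of the 5 lists in which edgeR called no gene higher, DESeq2 and limma-voom called none either, and at an unadjusted p under 0.05 there were 2 higher genes among the hyaluronan genes, 2 among the surface antigens, 1 among the filament genes and 0 in the other 2 lists. Among other intermediate filament genes and their linkers, 3 of 10 tested members fell and none rose. With no filter on low counts Krt19 and Ppl were called higher, Ppl on 38 counts in all, and without the batch term 0 members were called lower. Lmna, the gene of the A-type nuclear lamins, was at 501 ± 41.1 CPM on average under 2% CO2, against 653 ± 49.3 CPM under 10% CO2 (SD over 5 libraries each). The fitted log2 difference was -0.37 (edgeR adjusted p = 0.0124), and it did not pass without the 3 shallow libraries (adjusted p = 0.0617). Lmnb1, of a B-type lamin, had -0.47, and Synm, of synemin, which assembles with vimentin, had -0.93. The call of Synm was lost without 10% CO2 replicate 4 (adjusted p = 0.115). The linkers Plec, Dst and Macf1 did not pass.

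Where 6.73% of all tested genes fell and 5.3% rose, 9 of 24 tested stromal surface antigens other than the markers fell and none rose. Their median log2 fold change was -0.31. Without 10% CO2 replicate 4, 5 were lower, and without the batch term 3. With the replicate block 10 were lower and 2 higher (Pdpn and Cspg4), and 1 of these was higher with library totals and with no filter (Pdpn), in batch 1 alone and without 2% CO2 replicate 5 (Pdpn), and without 10% CO2 replicate 2 or 2% CO2 replicate 1 (Cspg4). The calls of Itga11 and Antxr1 depended on 2 and on 4 of the 10 libraries. Itga5, the fibronectin receptor chain, was at 67.3 ± 8.70 CPM on average under 2% CO2, against 121 ± 18.2 CPM under 10% CO2 (SD over 5 libraries each). That is a log2 difference of -0.92 (edgeR adjusted p = 0.000121). Cd276 (B7-H3) had -0.98, Cd248 (endosialin, a receptor of mesenchymal and perivascular cells) -0.88 and the tetraspanin gene Cd151 -0.46, and none of these calls depended on a single library. Lrp1 had -0.44 and Vcam1 -0.57, both lost without 10% CO2 replicate 4 and Vcam1 also without 2% CO2 replicate 4 (adjusted p of up to 0.0809). Of the markers of mural and smooth muscle cells, which share Pdgfrb with fibroblasts, Acta2, Tagln, Cnn1 and Mcam were called lower at 2% CO2, and Notch3 did not pass. The call of Mcam depended on 5 of the 10 libraries (adjusted p of up to 0.128), and was lost with library totals (0.0792) and without the 3 shallow libraries (0.0863). Cspg4, the pericyte marker NG2, lay the other way, with 43.3 ± 14.5 CPM under 2% CO2, against 27.6 ± 5.21 CPM under 10% CO2 (SD over 5 libraries each), and did not pass (log2 difference 0.42, edgeR adjusted p = 0.0864). The pericyte markers Kcnj8, Abcc9 and Higd1b were at 0. The summed level of the mural list was 3787 to 4576 CPM at 2% CO2 and 8392 to 9876 CPM at 10% CO2, and its part in the marker differences was not tested.

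For hyaluronan and CD44 partners, 5 of 16 tested genes fell and none rose, where 6.73% of all tested genes fell and 5.3% rose. Under the replicate block 6 of the list were lower and 1 higher (Ugdh). With library totals 3 fell and Ugdh rose, 3 fell on removal of any 1 of 8 of the 10 libraries, and 0 without the batch term. Has2, the one hyaluronan synthase gene that could be tested, was at 31.7 ± 14.6 CPM on average under 2% CO2, against 46.6 ± 7.93 CPM under 10% CO2 (SD over 5 libraries each). The log2 difference came to -0.76 (edgeR adjusted p = 0.00417), while Has1 and Has3 had 7 and 12 counts in all. Cemip2, which is reported to degrade hyaluronan at the cell surface, had -0.91, and Mmp14, a membrane protease known to cleave CD44, had -0.50 (lost without 10% CO2 replicate 4, adjusted p = 0.0553). Cemip and Vcan had -1.01 and -0.36, and their calls depended on 8 and 9 of the 10 libraries. The genes of ezrin, radixin and moesin, which tie CD44 to actin, did not pass: 0.28 for Ezr, -0.19 for Rdx and -0.26 for Msn.

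Where 6.73% of all tested genes fell and 5.3% rose, 3 of 20 tested PDGF ligand and receptor transducer genes fell and none rose. The number lower was 1 without 10% CO2 replicate 4, without the 3 shallow libraries and without the batch term, and 5 without 10% CO2 replicate 5. The ligand genes did not pass: Pdgfa had a log2 fold change of -0.15, Pdgfb of -0.36, Pdgfc of -0.39 and Pdgfd of -0.32. Those that fell were Nherf1 (-0.60), of a scaffold that binds the receptors, Nck2 (-0.52), an adaptor, and Cbl (-0.47), a ubiquitin ligase that ends receptor signalling. The call of Nck2 was lost without 10% CO2 replicate 4 and that of Cbl without 10% CO2 replicate 4 or 2% CO2 replicates 1 or 4, where the adjusted p reached 0.0925.

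Among 19 tested mesenchymal transcription factors, 1 rose and 1 fell, near the shares of all tested genes (5.3% and 6.73%). Under the replicate block 3 of the list were lower. Klf4 rose, with 33.6 ± 6.28 CPM on average under 2% CO2, against 16.1 ± 2.63 CPM under 10% CO2 (SD over 5 libraries each). The fitted log2 difference was 0.93 (edgeR adjusted p = 0.000212). Snai1, a repressor of epithelial genes, fell, with 24.4 ± 5.27 CPM on average under 2% CO2, against 46.7 ± 13.2 CPM under 10% CO2 (SD over 5 libraries each). That is a log2 difference of -0.96 (adjusted p = 0.00165). Neither group overlapped the other for these 2 genes. The paralogs of the marker genes did not pass, at -0.24 (log2) for Prrx2 and 0.23 for Twist2. Among the helix-loop-helix partners and inhibitors of Twist1, 2 of 9 tested genes fell and none rose. Id3, an inhibitor that binds E proteins, was at 368 ± 126 CPM on average under 2% CO2, against 659 ± 195 CPM under 10% CO2 (SD over 5 libraries each). The log2 difference came to -0.81 (edgeR adjusted p = 0.00036). The E protein gene Tcf3 had -0.53, and lost its call on removal of any 1 of 6 of the 10 libraries (adjusted p of up to 0.101).

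Of 7 tested S100 genes other than S100a4, 1 rose and 1 fell, where 5.3% of all tested genes rose and 6.73% fell. S100a7a had a mean of 5.21 ± 5.63 CPM under 2% CO2, against 1.29 ± 0.978 CPM under 10% CO2 (SD over 5 libraries each), and a log2 difference of 2.31, which no longer passed after removal of 10% CO2 replicate 2 or of 2% CO2 replicate 1 or 4 (adjusted p of up to 0.220). S100a11, with fractional counts in all 10 libraries, had -0.37, and its call too depended on 6 of the 10 libraries (adjusted p of up to 0.0838 without one of them). S100a6 and S100a10 did not pass, with -0.23 and -0.13. The medians of the 7 lists lay between -0.31 and -0.17.

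**Figure D5:**
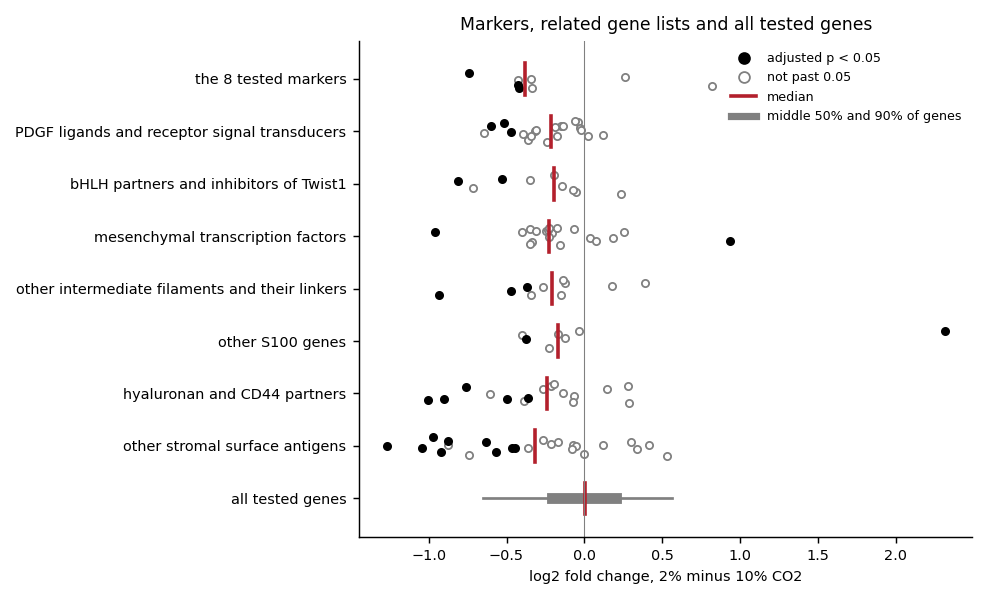
Log2 fold change (x axis, 2% minus 10% CO2) of the 8 tested markers, of the tested genes of 7 related lists and of all 13198 tested genes, with filled points for an adjusted p under 0.05, red bars for medians, and grey bars for the middle 50% and 90% of all genes. The medians of the markers and of the 7 lists lie below 0, against 0.0027 for all genes.

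For each tested marker the genes most like it were sought among the 7002 genes of at least 20 CPM, by the Pearson correlation of log2 CPM over the 10 libraries with batch means removed. The nearest to Vim was Slc1a6 (r = 0.99), followed by Tmem123 (0.98) and the smooth muscle actin gene Actg2 (0.97). The nearest to Nes was the basement membrane collagen gene Col4a2 (0.93), before Arhgef40 and Atxn7l3 (0.89 each). Thy1 was nearest to the kinase gene Cdk16 (0.95), the cyclin gene Ccnd3 (0.93) and Dkk3 (0.91). Cd44 was nearest to Bclaf1 and Ubxn4 (0.92 each) and Hcfc1 (0.91), and Pdgfrb to Herpud2 (0.98), Arhgap19 (0.93) and Plpp3 (0.92). Twist1 lay closest to the small GTPase gene Mras (0.99), then to Mapkapk5 and Gm42878 (0.98 each), and S100a4 to Gm42674, Fam174c and Isca2 (0.95 each). Prrx1 was nearest to Prkg2 (0.96), then to the imprinted non-coding transcript H19 (0.90) and to Mir100hg (0.89). These are the highest values of 7002 over only 10 libraries that share depth, and they describe a likeness of pattern alone.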

How the data were processed

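Messenger RNA libraries of 10 samples were analysed. Per the labels' protocols, RNA was extracted on beads by a sequencing company and made into tagmented cDNA libraries. Strand and molecular identifiers are not stated there. The tools named per the submitters' processing notes are MultiQC 1.32, STAR 2.7.11, featureCounts (Subread 2.1.1) and SAMtools 1.22.1, with build GRCm39. Which settings and annotation they were run with was not given in the sources used here. Estimated counts per gene were deposited by the authors, not normalized and partly fractional (within each library 71.0% to 79.2% of values above 0 are whole, to within 1e-06), together with a second table in CPM, which differs from the counts divided by the library total by at most 4.8e-05 and was used for that check. The 92 spike-in entries, all at 0, were left out.

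Rounded counts went into edgeR 4.0.16 under R 4.3.3 (filterByExpr with minimum count 10 and minimum total 15, TMM, robust quasi-likelihood F tests with batch plus CO2, two-sided, Benjamini-Hochberg adjusted p under 0.05 over all 13198 genes). The SE is the log2 fold change over the root of F. Printed CPM are TMM-scaled, within-batch values come from each batch alone, and the CO2 by batch interaction from a model with that term. The markers, the lists and the rule for naming genes (all markers, their paralogs, ligands and partners, up to 6 called genes of a list by adjusted p, and the 3 genes most like each marker) were chosen with earlier results of these data known. Alternatives were RLE and library total scaling, omitting the filter, asking for 10 CPM in 5 libraries, DESeq2 1.42.0, limma-voom (limma 3.58.1), leaving out each library or the 3 shallowest, dropping the batch term, using 1 batch alone and blocking on the replicate number.

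Replicate numbers are shared by the CO2 levels. After the means of the CO2 levels were removed, same-numbered libraries correlated in all 5 pairs (0.57, 0.14, 0.26, 0.73 and 0.26). With batch means removed as well, the values were 0.23, 0.13, 0.027, 0.24 and 0.24. Those of replicates 4 and 5 are equal by construction, since batch 2 holds only these replicates. Pairs of different numbers were not compared. By a chi-square test, no 2 libraries of a level and batch other than 2% CO2 replicates 2 and 3 agreed within sampling noise. Their values were 1.94 to 11.3 per degree of freedom. For 2% CO2 replicates 2 and 3, both shallow, the value was 1.13, and small expected counts leave the test unable to decide. The scripts were tested on counts simulated without a batch difference. They recovered 36.4% of 1.5-fold, 80.3% of 2-fold and 93.7% of 3-fold changes, and 6.21% of the calls were false. A gene that did not pass may therefore still differ.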

Additional observations from a re-analysis of the deposited data

Results flagged for a closer look

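S100a4 stood at 171 CPM in 2% CO2 replicate 1, with the next of the 5 libraries at 104 CPM, a gap of 0.871 of the range of the group, where a gap above 0.710 is rare. Of 18 groups of 5 libraries examined (9 markers at 2 CO2 levels), this was the only one past that limit, and chance gives about 1 in 20. Without that library the S100a4 difference was 0.54 (log2, edgeR adjusted p = 0.258), as given above. In 10% CO2 the library of the same number was also the highest for S100a4, at 94.8 CPM.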

How the results depend on the processing

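The number of genes called between 2% and 10% CO2 was 351 without the batch term, 763 in batch 1 alone and 267 in batch 2 alone, and between 736 (without 10% CO2 replicate 4) and 1726 when a library was left out, against 1588. Of the markers, 1 was called lower without the batch term, in batch 1 alone and in batch 2 alone, 4 with no filter (Prrx1 added), 5 with the replicate block, and 2 to 3 when a library was left out. The 1 marker called higher with library totals, no filter, the 10 CPM filter, DESeq2, limma-voom and the replicate block was S100a4, and leaving out a library gave 0 to 1. Vim and Thy1 kept their direction in all 21 alternatives and were called in 19 and 20 of them, and Nes was called in 11. The Pdgfrb difference had the opposite sign in batch 2 alone, 0.093, and the cause was not tested. The interaction of CO2 and batch called 0 genes with edgeR (1154 at an unadjusted p under 0.05), 104 with no filter, 57 with DESeq2, 118 with the replicate block, and between 0 and 135 when a library was left out, with no marker among them. With the replicate block 1927 genes were called. Scaling to library totals gave 1031 higher and 614 lower genes, against 700 and 888, and there Nes did not pass. Depth limits the shallow libraries most: 3 counts equal 15.7 CPM in 2% CO2 replicate 2.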
